A study of Mus musculus with 6 samples.

Results

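The genes described here belong to families that build the coat and the neck of caveolae. Coat genes are the caveolins Cav1 and Cav2 and the cavins Cavin1, Cavin2 and Cavin3. The EHD ATPases Ehd1, Ehd2 and Ehd4 and the pacsins Pacsin2 and Pacsin3 are called neck genes below. Of these, Ehd1 and Ehd4 encode proteins that act mainly at endosomes. The 10 genes were selected by name among the 31017 gene symbols in the deposited table. The set was chosen from the place of these families in the caveola, with earlier results of the same libraries in view. The values that drew attention to the 10 genes were the group differences in RNA level, so those differences are given below as a description, with no p-value. All 10 passed the filter on low counts and were among the 12076 genes tested.

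The RNA came from 4T1, a mouse mammary carcinoma line, cultured within 3D gels of collagen I. Cas9 was nucleofected with control guides in the 3 control samples (library code sgCTRL) and with gene-specific guides in the 3 samples labelled ETV4 KO (library code c39). Etv4 encodes an ETS transcription factor. Both groups therefore went through Cas9 nucleofection, gel culture and collagenase release. The labels do not say whether c39 is a single clone, which of a pair of collagen concentrations was used, or whether replicates grew in separate gels. P-values here cover the spread among these libraries alone, and that spread may be technical. Total counts were 22355015 to 29042569 per library. Etv4 itself was counted 3098, 3648 and 3030 times in control libraries and 2503, 2217 and 2207 times in ETV4 KO. Its RNA was lower without being lost (log2 fold change -0.58, SE 0.036), and these totals do not show the edit. Etv4 lies on chromosome 11, and the other expressed genes in its 10 Mb bin centred on -0.46 (their median, log2 scale). How much of the lower Etv4 level belongs to this regional difference was not tested. The summed level of 6 epithelial carcinoma markers, led by the keratins Krt8 and Krt18, was 4760 to 4899 CPM (counts scaled to library size with TMM factors) in controls and 3408 to 3557 CPM in ETV4 KO. Of these 6, 5 were lower and 1 higher in ETV4 KO, from Epcam at 38.6% of its control mean to Krt19 at 109.8%. Summed markers of cell types rich in caveolae were low: endothelial at 0.220 to 0.604 CPM in controls and 0.121 to 0.314 in ETV4 KO, adipocyte at up to 0.0739 and 0.105, and muscle at 1.94 to 2.50 and 0.280 to 0.544, the control sum being mostly Myh1. Emcn, Plin1, Lpl and Des were at 0 counts. The 6 fibroblast markers summed to 9.74 to 11.4 CPM in controls and 12.7 to 14.5 CPM in ETV4 KO, nearly all of it Pdgfra, with Dpt and Lum at 0 counts. Leukocyte markers summed to 9.83 to 10.5 CPM and 9.41 to 11.4 CPM, nearly all of it Cd68, with Adgre1 and Cd3e at 0 counts. The part of these marker differences in the results below was not tested.

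Caveolae are small flask-shaped pits of the plasma membrane. Oligomers of caveolin-1 embed in the inner leaflet, trimers of cavins assemble on them as an outer coat, and a ring of EHD2 with the F-BAR protein pacsin-2 holds the neck. Cavin-1 and, outside muscle, caveolin-1 are required for caveolae. By contrast, caveolin-2 depends on caveolin-1 to leave the Golgi, and cavin-2 and cavin-3 join the coat through cavin-1. Caveolin-3 and cavin-4 are the muscle forms, and pacsin-1 is mainly neuronal. Caveolae buffer membrane tension and carry signalling receptors, and they are abundant in fibroblasts, adipocytes, endothelium and muscle.

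The upstream sequences of the coat genes, Cavin3 aside, are shown first because the largest differences fell on Cavin2, Cav1 and Cavin1. Cav2, which lies beside Cav1, differed little. Each run holds the 250 bases before a RefSeq start site in GRCm38.p6 (the mm10 build), read 5′ to 3′ along the gene. Capitals mark the ETS core letters GGAA, or TTCC where the core lies on the other strand. The windows are chr1:51288876-51289125 on the plus strand for Cavin2, chr6:17306085-17306334 on the plus strand for Cav1, chr6:17280935-17281184 on the plus strand for Cav2 and chr11:100970618-100970867 on the minus strand for Cavin1.
Cavin2: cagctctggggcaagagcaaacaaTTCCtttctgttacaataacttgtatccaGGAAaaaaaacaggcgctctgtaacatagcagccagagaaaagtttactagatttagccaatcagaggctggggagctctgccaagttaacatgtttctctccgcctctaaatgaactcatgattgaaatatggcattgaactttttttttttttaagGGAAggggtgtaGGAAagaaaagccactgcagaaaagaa
Cav1: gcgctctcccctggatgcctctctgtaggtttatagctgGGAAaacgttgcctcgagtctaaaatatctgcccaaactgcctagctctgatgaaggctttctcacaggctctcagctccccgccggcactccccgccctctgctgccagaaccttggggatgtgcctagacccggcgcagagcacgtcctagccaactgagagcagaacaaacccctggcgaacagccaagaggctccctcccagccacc
Cav2: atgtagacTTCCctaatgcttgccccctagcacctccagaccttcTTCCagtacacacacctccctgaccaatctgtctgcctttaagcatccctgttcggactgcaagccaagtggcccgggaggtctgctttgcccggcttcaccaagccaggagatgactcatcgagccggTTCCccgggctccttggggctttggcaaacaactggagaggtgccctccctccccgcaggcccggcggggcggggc
Cavin1: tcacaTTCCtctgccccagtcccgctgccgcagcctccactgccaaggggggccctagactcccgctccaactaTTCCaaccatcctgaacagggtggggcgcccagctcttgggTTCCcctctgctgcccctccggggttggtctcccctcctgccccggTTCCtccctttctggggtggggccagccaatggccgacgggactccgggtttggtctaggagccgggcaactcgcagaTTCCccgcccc

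RefSeq promoter windows, from 250 bases before to 50 after a start site, were found for 8 of the 10 genes, 13 windows in all, since Cav1, Cavin1, Pacsin2 and Pacsin3 have more than 1 start. Cavin3 and Ehd1 had no window. The ETS core GGAA, searched on both strands, was present in 12 of the 13 windows, Ehd2 being the exception. The same letters are in 96.0% of all 32851 promoter windows of this length. Within the window the core occurred 5 times at Cavin2, 3 times at the Cav1 start shown, 5 times at Cav2 and 6 times at Cavin1. The longer ETS letters CCGGAA, and CCGGAAGT that contains them, were in 0 of the 13 windows. They were in 28.0% and 8.40% of the 11897 windows of tested genes, and in 14.9% and 3.89% of all 32851 windows. The Cavin1 windows overlap almost in full, so the 13 are not all separate. A match is a run of letters and not a shown binding site. The Cavin2 window differs from those of Cav1, Cav2 and Cavin1 in base composition, with 4 CpG dinucleotides. Among windows of tested genes 9.30% hold that many or fewer, and the median is 21. The Cav1 window shown holds 13 CpG, that of Cav2 16 and that of Cavin1 17. The Pacsin2 windows hold 3, 4 and 27 CpG.

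Among the coat genes, Cav1 RNA was nearly lost in ETV4 KO cells and Cavin2 RNA appeared where controls had almost none. Cavin1 was at 42.5% of its control level, Cav2 at 93.3% and Cavin3 at 92.6%. Among the neck genes the differences were small, with Ehd4, Pacsin2 and Pacsin3 somewhat higher. The edgeR fit across all genes called 35.0% of them higher and 36.0% lower at a Benjamini-Hochberg adjusted p under 0.05. The 10 genes hold 4 of the higher and 5 of the lower calls, a count that describes them and supports nothing, since they were chosen with this contrast known. The median log2 fold change was -0.0058 for the 10 genes and -0.0038 for all genes tested. In bulk RNA a lower level can reflect fewer cells that make a transcript or less of it per cell, and these cannot be told apart.

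**Figure D1:**
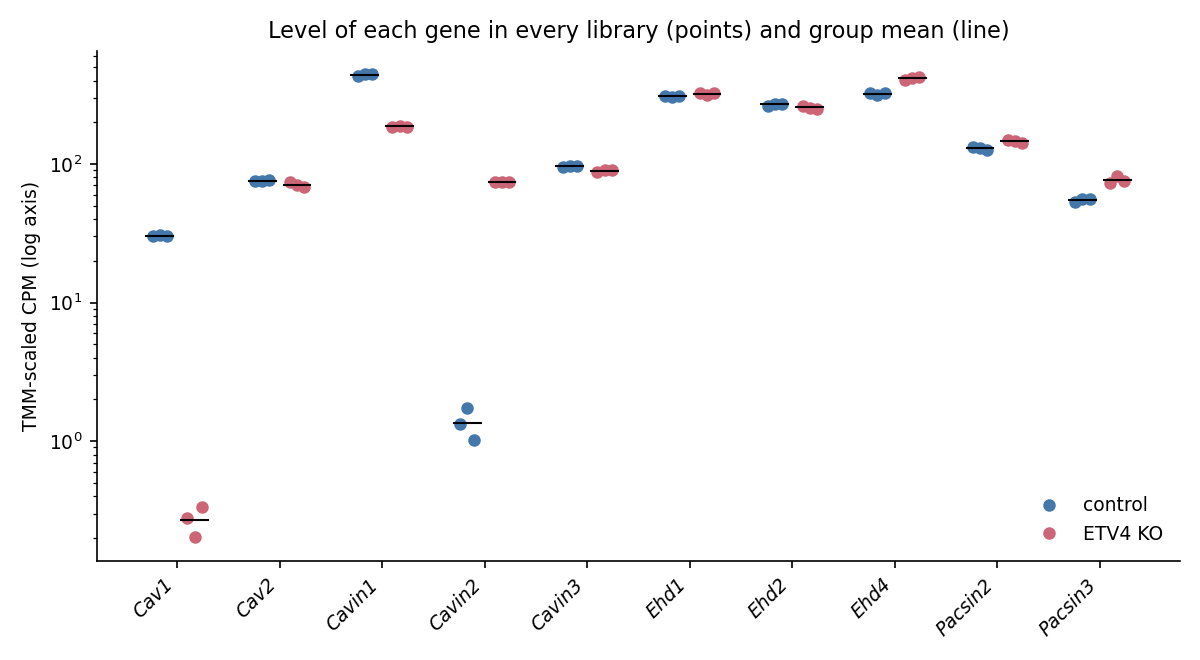
TMM-scaled CPM of the 10 genes on a log axis, with 1 point per library and a line at each group mean (3 control and 3 ETV4 KO libraries). Cav1 falls from 30.4 to 0.272 CPM and Cavin2 rises from 1.36 to 74.3 CPM between the group means, while the other 8 genes keep to the same decade in both groups.

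Cav1 (chromosome 6, 17306335 to 17341452 in mm10, plus strand) encodes the caveolin that forms the caveolar scaffold. Its RNA was counted 701, 832 and 687 times in control replicates 1, 2 and 3, and 8, 5 and 8 times in ETV4 KO replicates 1, 2 and 3. On the TMM scale these were 30.2, 30.7 and 30.2 CPM against 0.279, 0.202 and 0.335 CPM. All ETV4 KO libraries were far below all controls and the groups did not come near each other. The ratio of the mean levels, control over ETV4 KO, was 111.7, with a log2 fold change of -6.78 (SE 0.14). Only 29 of the 12076 tested genes had a lower log2 fold change. Depth limits the low end of this ratio: 21 counts remain over the 3 ETV4 KO libraries.

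Cav2 (chromosome 6, 17281185 to 17289115, plus strand), the partner caveolin, starts 25.15 kb before Cav1 on the same strand. Its level was 75.7, 75.2 and 76.6 CPM in controls and 74.5, 70.1 and 67.8 CPM in ETV4 KO. The groups did not overlap, but the highest ETV4 KO library was within 1 CPM of the lowest control. The log2 fold change was -0.10 (SE 0.042), and it was -0.0095 (SE 0.042) with the median of the neighbouring 10 Mb taken out, so that the pair of neighbours differed from control by very different amounts. An antisense gene that spans both, Gm15581, shares 0 exon bases with either and had 1 count over the 6 libraries. Cav3, the muscle caveolin, had 0 counts in every library.

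Per kilobase of exon, Cav1 made up 27.9%, 28.4% and 27.6% of the summed caveolin level in the controls. In the ETV4 KO libraries its share was 0.362%, 0.278% and 0.476%, with Cav2 supplying the rest. The summed caveolin level went from 31.6 ± 0.162 to 21.3 ± 1.03 CPM per kb (SD, n = 3 per group), a ratio of 0.675. These shares are taken within a library and do not depend on how libraries are scaled.

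Cavin1 (chromosome 11, 100956733 to 100970887, minus strand) encodes the cavin on which the coat is built. It was the most abundant of the 10 genes per kilobase in controls. Its values were 428.8, 446.8 and 442.8 CPM in controls and 185.9, 189.2 and 185.3 CPM in ETV4 KO. Each group was tight and the gap between them was wide. The mean in ETV4 KO was 42.5% of control, a log2 fold change of -1.23 (SE 0.032). Cavin1 starts 814.5 kb from Etv4 on chromosome 11, where most genes were lower. Of the 55 other tested genes that start within 1 Mb of Cavin1, 46 were called lower and 3 higher, with a median log2 fold change of -0.61. With the 10 Mb bin median taken out, the log2 fold change of Cavin1 was -0.77 (SE 0.032). Its part in the regional difference was not tested.

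Cavin2 (chromosome 1, 51289126 to 51302960, plus strand) encodes a phosphatidylserine-binding cavin. Its RNA was counted 31, 47 and 23 times in controls and 2113, 1842 and 1785 times in ETV4 KO. The scaled levels were 1.34, 1.74 and 1.01 CPM against 73.8, 74.4 and 74.7 CPM. Every ETV4 KO library was far above every control, and the ETV4 KO values lay within 1 CPM of each other. The ratio of the means was 54.6, with a log2 fold change of 5.74 (SE 0.088), the 4th highest among all genes tested. Leaving out single samples moved it between 5.58 and 5.97, since the control level rests on 101 counts. Cavin3 (chromosome 7, 105480083 to 105482300, minus strand), which binds protein kinase C delta, had 95.0, 97.1 and 96.5 CPM in controls and 86.8, 90.2 and 90.1 CPM in ETV4 KO. Its log2 fold change of -0.11 (SE 0.037) became -0.39 once the median of its 10 Mb bin was taken out. Of the 12 tested genes within 1 Mb of it, 6 were called higher and 2 lower. Cavin4, a muscle cavin outside the set, was low in both groups, at 0.669 ± 0.179 and 1.39 ± 0.288 CPM (SD, n = 3 per group), with a log2 fold change of 1.06 (SE 0.27).

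The make-up of the cavin family shifted from Cavin1 toward Cavin2 and Cavin3. Per kilobase of exon, Cavin1 held 67.4%, 67.8% and 67.7% of the summed cavin level in controls and 40.2%, 40.0% and 39.4% in ETV4 KO. Cavin2 went from 0.247%, 0.309% and 0.182% to 18.8%, 18.5% and 18.6%. Cavin3 held 31.9% ± 0.219 in controls and 41.0% ± 0.404 in ETV4 KO (SD, n = 3 per group), although its own level was slightly lower. The shares use levels without the bin medians taken out. With these medians taken out, the log2 fold change was -0.77 for Cavin1 and -0.39 for Cavin3. The part of the regional medians in the shift of shares was not tested. The summed cavin level fell from 181.2 ± 3.30 to 130.7 ± 1.65 CPM per kb (SD, n = 3 per group), so the gain of Cavin2 was smaller than the loss of Cavin1 on this scale.

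**Figure D2:**
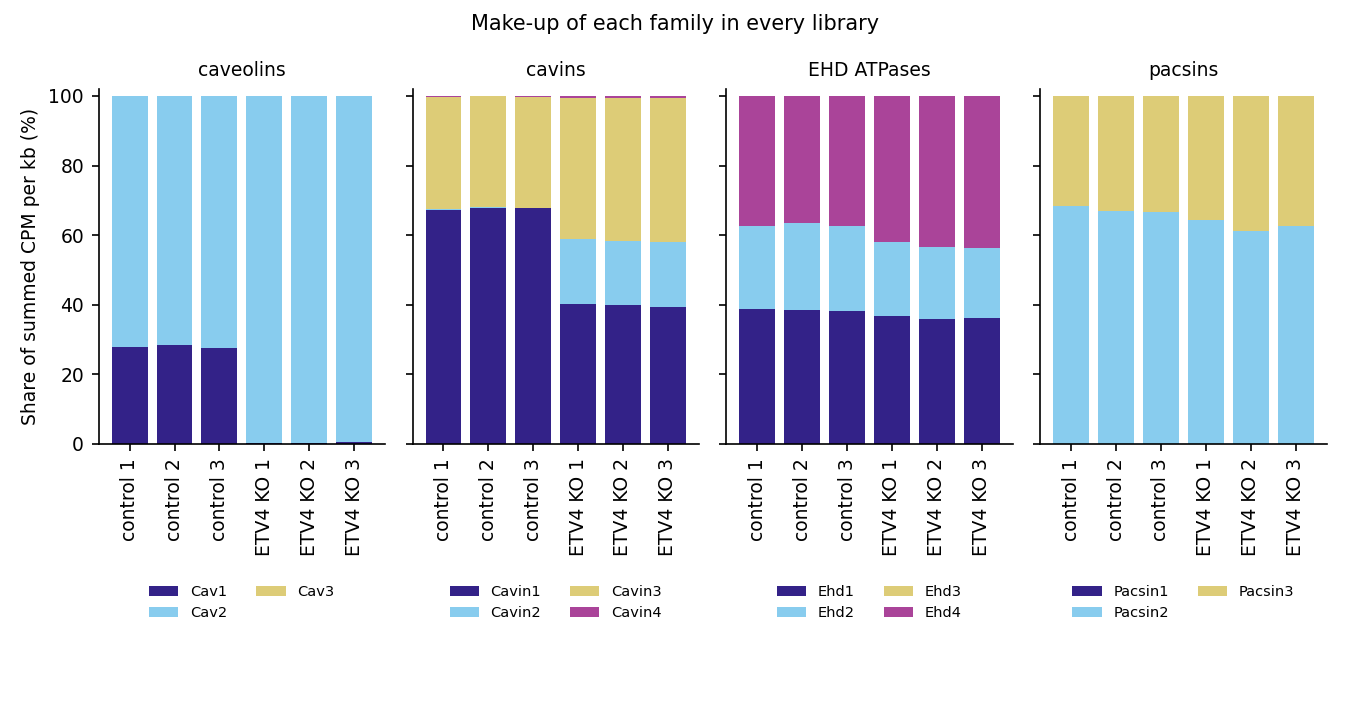
Stacked bars give the share of each gene in the summed CPM per kb of exon of its family, for each of the 6 libraries. Cav1 drops from 28.0% to 0.372% of the caveolins, and Cavin2 goes from 0.246% to 18.6% of the cavins, whereas the EHD and pacsin bars change less.

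None of the neck genes differed as much as Cav1, Cavin2 or Cavin1. Ehd2 (chromosome 7, 15946958 to 15967567, minus strand), the ATPase that rings the caveolar neck, had 263.9, 271.8 and 272.5 CPM in controls and 264.2, 252.3 and 251.3 CPM in ETV4 KO. The groups overlapped, making it the exception among the 10 genes, where 9 had groups that did not overlap (72.7% over all genes tested). The log2 fold change of Ehd2 was -0.07 (SE 0.033), and -0.17 with the bin median taken out.

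Ehd4 and Ehd1 encode paralogues that act mainly at endosomes. Ehd4 (chromosome 2, 120089175 to 120154606, minus strand) had 325.7, 314.3 and 326.0 CPM in controls and 404.3, 416.1 and 423.2 CPM in ETV4 KO. All ETV4 KO libraries were higher, by a log2 fold change of 0.36 (SE 0.032), or 0.19 with the bin median taken out. Ehd1 (chromosome 19, 6276725 to 6300096, plus strand) had 312.0, 306.0 and 309.2 CPM in controls and 327.2, 317.2 and 323.3 CPM in ETV4 KO. Its log2 fold change was 0.06 (SE 0.031), and with the bin median taken out it was -0.04. Ehd3 had 0 counts in every library. Within the EHD family Ehd4 went from 37.1% ± 0.437 to 43.0% ± 0.970 of the summed level per kb, and Ehd2 from 24.3% ± 0.528 to 20.8% ± 0.583 (SD, n = 3 per group).

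The pacsins bend membrane at the neck and in endocytosis, pacsin-2 being the form tied to caveolae in most cells and pacsin-3 the form rich in muscle. Pacsin2 (chromosome 15, 83375607 to 83464606, minus strand) had 131.7, 129.7 and 127.0 CPM in controls and 148.9, 145.7 and 141.9 CPM in ETV4 KO. Pacsin3 (chromosome 2, 91255954 to 91264679, plus strand) had 53.4, 56.4 and 56.2 CPM in controls and 72.7, 81.7 and 75.0 CPM in ETV4 KO. For both genes each ETV4 KO library was above each control, with log2 fold changes of 0.17 (SE 0.035) for Pacsin2 and 0.47 (SE 0.045) for Pacsin3. Pacsin1 had 7 counts over the controls and 2 over ETV4 KO. Pacsin3 held 32.6% ± 1.01 of the summed pacsin level per kb in controls and 37.3% ± 1.62 in ETV4 KO (SD, n = 3 per group). With the longest transcript as the length these shares were 44.2% and 49.3%, so the order of the pair is less firm than the difference between groups.

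**Figure D3:**
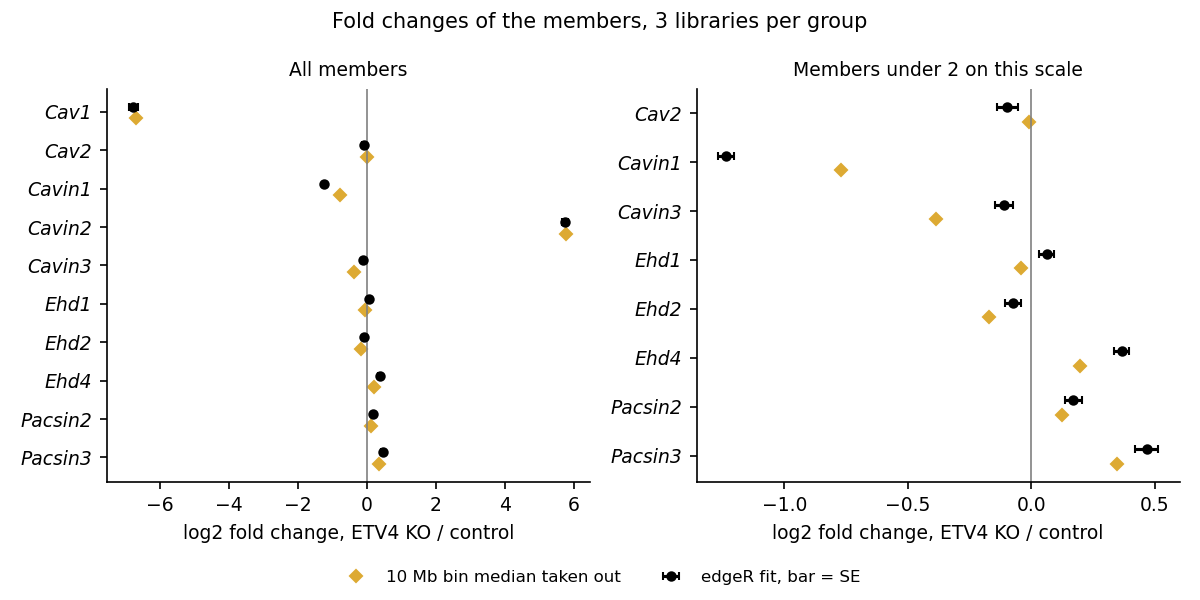
Log2 fold changes of ETV4 KO against control for the 10 genes (left) and for the 8 under 2 on this scale (right). Black points with SE bars are the edgeR values and diamonds the values with the 10 Mb bin median taken out, which move Cavin1 from -1.23 to -0.77 and Ehd1 from 0.06 to -0.04.

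The order of the levels per kilobase changed with these differences. In controls it ran from Cavin1 (122.5 ± 2.63 CPM per kb) through Ehd1 (83.4 ± 0.816), Ehd4 (80.4 ± 1.67), Cavin3 (57.9 ± 0.664), Ehd2 (52.6 ± 0.931), Pacsin2 (26.4 ± 0.488), Cav2 (22.7 ± 0.220), Pacsin3 (12.8 ± 0.387) and Cav1 (8.82 ± 0.0841) to Cavin2 (0.446 ± 0.119, all SD, n = 3). No neighbours in that order, which uses the summed exon length, overlapped. In ETV4 KO Ehd4 (103.5 ± 2.38 CPM per kb) was at the top, followed by Ehd1 (87.1 ± 1.37), Cavin3 (53.6 ± 1.16), Cavin1 (52.1 ± 0.591), Ehd2 (49.1 to 51.6), Pacsin2 (29.6 ± 0.715), Cavin2 (24.3 ± 0.142), Cav2 (21.2 ± 1.03), Pacsin3 (17.7 ± 1.08) and Cav1 (0.0790 ± 0.0194), as mean ± SD (n = 3) or, for Ehd2, the range. There, on the same length, the values of Cavin3 and Cavin1 overlapped and no other neighbours did. These spreads leave out the error of the exon lengths, and the lower part of the order depends on the length used. With the longest transcript as the length, Cav2 lay above Cavin2 in ETV4 KO (24.8 to 27.3 against 24.2 to 24.4 CPM per kb). On that length Pacsin3 (36.5 to 41.0 CPM per kb) lay above both and overlapped Pacsin2 (38.4 to 40.3), and in controls Pacsin3 (26.8 to 28.3) overlapped Cav2 (27.5 to 28.0). Cavin1 and Cavin3 overlapped in ETV4 KO on either length.

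The genes next to the coat genes on the chromosome did not share the large differences of Cav1 and Cavin2. Of 6 tested genes that start within 1 Mb of Cav1, Cav2 among them, 2 were called lower and 1 higher, with log2 fold changes between -0.76 and 0.14. Met, the nearest on the far side at 157.5 kb and the gene of the HGF receptor, rose from 169.4 ± 5.47 to 186.4 ± 9.29 CPM (SD, n = 3 per group), by 0.14 (SE 0.037, edgeR adjusted p = 0.00157). Of 4 tested genes within 1 Mb of Cavin2, 2 were called lower and 0 higher, and the nearest, Nabp1 at 189.3 kb, differed by 0.04 on the log2 scale (SE 0.042, with an edgeR adjusted p = 0.344). Beside Cavin1, Stat3 at 31.3 kb fell by 0.54 on the log2 scale (SE 0.042, edgeR adjusted p = 1.79e-12), and Atp6v0a1 at 38.6 kb had 0.09 (SE 0.041, edgeR adjusted p = 0.0516). Around the other 6 genes the median of the neighbours within 1 Mb lay between 0.10 and 0.27.

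**Figure D4:**
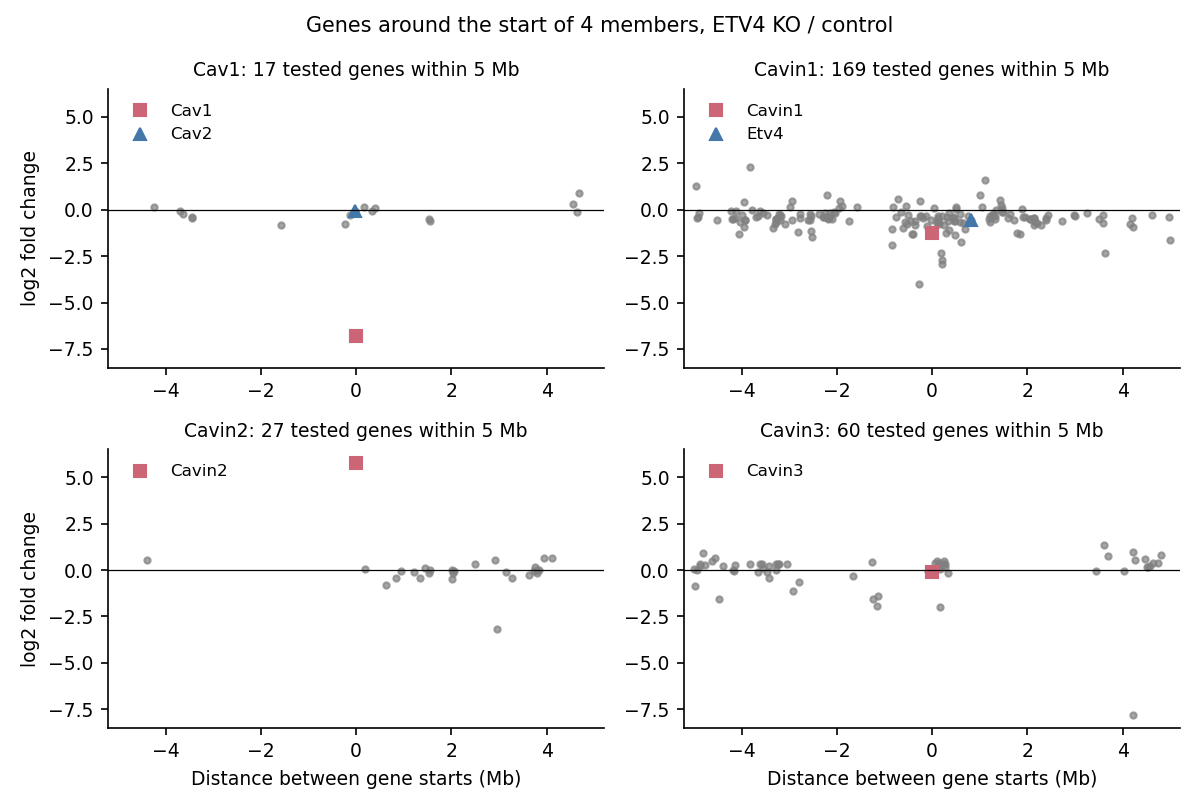
Log2 fold change of each tested gene within 5 Mb (grey) against its distance from the start of Cav1, Cavin1, Cavin2 or Cavin3 (square), with Cav2 and Etv4 as triangles. Cav1 at -6.78 and Cavin2 at 5.74 stand outside the range of their neighbours, whereas most points around Cavin1 lie below 0 with a median of -0.44.

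Among the profiles most like that of Cavin2 across the 6 libraries, by Euclidean distance of centred log2 CPM (pseudocount 0.5), were those of Tnxb (tenascin X; distance 1.97) and Pcsk6 (a proprotein convertase; 2.26). Neither lies on chromosome 1, and Pcsk6 went from 4.09 ± 0.383 to 51.8 ± 1.32 CPM (SD, n = 3 per group), a log2 fold change of 3.66. Tnxb had 11 counts over the controls and 649 over ETV4 KO, a log2 fold change of 5.75. Its mean control level of 0.149 CPM is under the pseudocount, so its distance depends on that setting. Closest to Cav1 were Rasef (0.215), Zfp518b (0.284) and Rps6ka6 (0.301). These 3 genes had 1480, 1289 and 1665 counts over the controls and 0, 1 and 9 over ETV4 KO. None lies on chromosome 6. Their log2 fold changes were -11.99, -9.95 and -7.56, against -6.78 for Cav1. The ETV4 KO means were 0.272 CPM for Cav1 and 0, 0.0139 and 0.115 CPM for these genes. All are under the pseudocount, so these distances depend on that setting as well. With 2 groups of 3 such likeness mainly reflects the size of the group difference after the pseudocount is added, which can differ from the fitted log2 fold change.

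Other genes of caveolae and of neighbouring endocytic routes were counted from lists set by function, 165 genes in 8 lists, of which 144 were tested. Together 68 were called higher and 43 lower (47.2% and 29.9%, against 35.0% and 36.0% of all genes tested), with a median log2 fold change of 0.06. Only 10 of those called higher and 5 of those called lower differed by at least 2-fold. The naming rule took 42 of them, with log2 fold changes whose SEs ran from 0.030 to 0.19 and whose adjusted p in edgeR was 0.00716 or lower. For 23 of the 42 the log2 fold change moved by more than 1.5 times with the 10 Mb bin medians taken out, and that value is given below where such a gene is named.

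Among dynamins and BAR-domain proteins, which bend and cut membrane necks, 8 of 20 tested genes rose and 5 fell, or 9 and 10 with the bin medians taken out. The endophilin Sh3gl3 rose by 1.24 and the F-BAR gene Trip10 by 1.06, from 71.9 ± 1.30 to 149.9 ± 8.33 CPM (SD, n = 3 per group). Snx9 rose by 0.69 (0.19 with the bin median taken out). The I-BAR genes Baiap2l1 and Baiap2, whose proteins shape protrusions, fell by 1.88 and 0.94 on the log2 scale, and Baiap2 was at -0.46 with its bin median taken out. The F-BAR gene Fnbp1 was at -0.21, or -0.38 on that scale. Dnm2, the ubiquitous dynamin, was named after its value was seen: its log2 difference was 0.07 (SE 0.035), at an edgeR adjusted p = 0.0875. Among EHD partners and recycling endosome genes 6 of 18 rose and 7 fell, or 6 and 5 with the bin medians taken out. Acap1, an Arf6 GAP, was lowest at -1.49, with Rab8b at -0.67 and Rab11a at -0.32 (-0.17 with its bin median taken out). The rises were small, led by Dennd1a, an exchange factor for Rab35, at 0.38 and Rab35 at 0.36 (0.21 and 0.16 with the bin medians taken out). Mical3, a Rab effector of the MICAL family, rose by 0.29 (0.47 on that scale).

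Of 21 tested genes for caveolin kinases, filamin linkers and turnover factors, 8 rose and 6 fell. Ror1, a receptor tyrosine kinase-like protein, was highest at 2.20, from a low level of 0.911 ± 0.153 to 4.17 ± 0.304 CPM (SD, n = 3 per group). Ankrd13a, a ubiquitin-binding adaptor, rose by 0.52 and the Src family kinase Yes1 by 0.40 (0.33 and 0.13 with the bin medians taken out). Vcp, an ATPase of protein turnover, had -0.31 (-0.16 with the bin median taken out). The filamin Flnc was at -0.19 and Zfand2b at -0.30, and neither was called with its bin median taken out (-0.06 and -0.20, edgeR adjusted p = 0.152 and 0.0747). Zfand2b also lost its call without control replicate 2 (edgeR adjusted p = 0.0553) or ETV4 KO replicate 1 (0.0757). Src and Abl1, which phosphorylate caveolin-1, were named after their values were seen: they were at -0.05 and 0.03 (edgeR adjusted p = 0.173 and 0.389).

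In the clathrin list 16 of 31 tested genes rose and 11 fell, or 15 and 11 with the bin medians taken out. The adaptor Dab2 rose by 3.32, from 7.92 ± 0.494 to 78.9 ± 2.69 CPM (SD, n = 3 per group), the arrestin Arrb1 by 1.70 and Numbl by 0.86. The epsins Epn3 and Epn2 had -2.36 and -0.89, Epn3 going from 32.9 ± 0.508 to 6.40 ± 0.344 CPM (SD, n = 3 per group), and the AP2 subunit Ap2b1 was at -0.49. Once bin medians were taken out Epn2 was at -0.53 and Ap2b1 at -0.17. Of 13 tested genes for flotillins and other raft proteins, 7 rose and 4 fell: Flot1, a scaffold of flat microdomains, rose by 0.91 and Stom by 0.85, while Mal2, a raft protein of epithelial transcytosis, fell by 3.18 from 72.7 ± 2.07 to 7.99 ± 0.748 CPM (SD, n = 3 per group). Mal, the founder of that protein family, was at -0.77 and the stomatin-like gene Stoml1 at -0.53. Plp2 rose by 1.19 (0.28 with the bin median taken out).

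Of 16 tested genes of clathrin-independent uptake, 8 rose and 6 fell, or 7 and 3 when the bin medians were taken out. Pak1, a kinase of macropinocytosis, rose by 0.57 and Swap70 by 0.37 (0.26 and 0.15 once bin medians were taken out). The early endosome GTPases Rab5a, Rab5b and Rab5c were at 0.31, -0.42 and -0.32, of which Rab5a and Rab5c turned to -0.0093 and 0.14 when bin medians were taken out. The Rab5 effector gene Ankfy1 was at -0.41, or -0.01 and no longer called on that scale (edgeR adjusted p = 0.823). Of 24 tested genes for receptors and enzymes known in caveolae, 14 rose and 4 fell, or 10 and 4 when the bin medians were taken out. Among the 24, 1 differed by at least 2-fold. Tissue factor (F3) rose by 0.81 and the TGF-beta receptor Tgfbr2 by 0.66, from 181.7 ± 5.03 to 287.7 ± 4.50 CPM (SD, n = 3 per group). Tgfbr1 was at -0.24 and the glucose transporter gene Slc2a1 at -0.19, and both calls were lost with the bin medians taken out (-0.09 and -0.04, edgeR adjusted p = 0.0599 and 0.390).

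**Figure D5:**
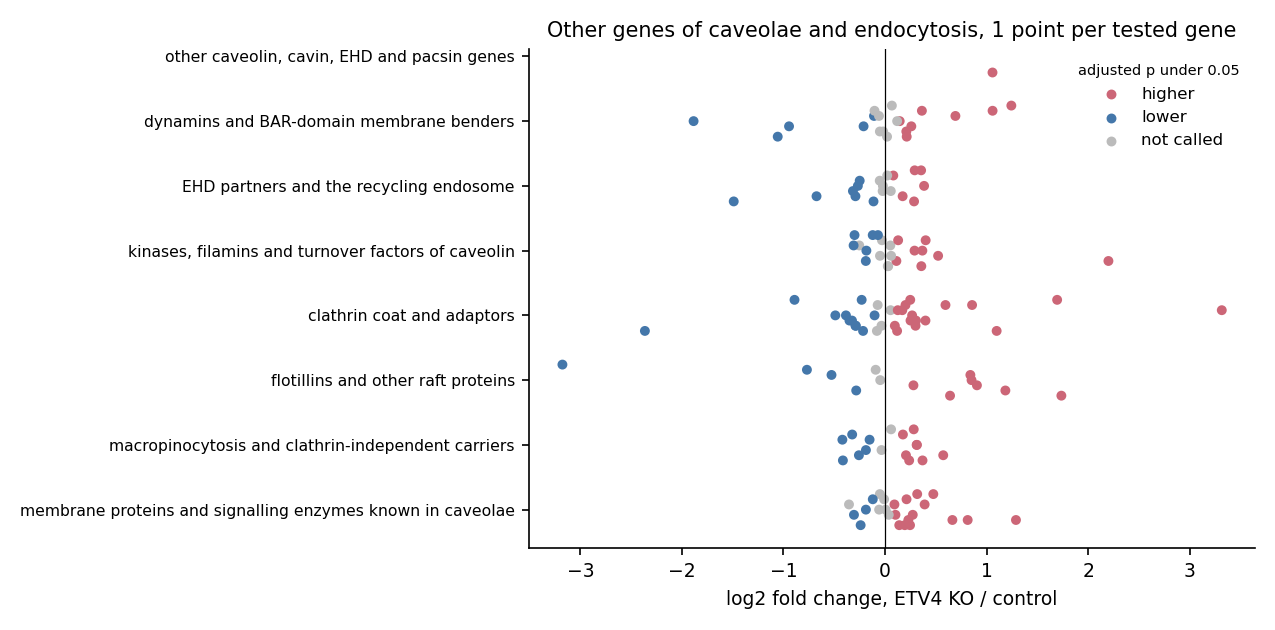
Log2 fold change of ETV4 KO against control for the 144 tested genes of the 8 lists, 1 point per gene, coloured by the edgeR call. Most points lie within 1 of 0, with Dab2 at 3.32 and Mal2 at -3.18 as the extremes.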

How the data were processed

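RNA was measured by poly(A) sequencing in 3 control and 3 ETV4 KO samples. Libraries were made with a stranded TruSeq kit, per the labels' protocols. The authors deposited 1 table of raw counts by gene symbol, taken as such because its values are whole numbers with unequal totals. Tools listed, per the submitters' processing notes, are STAR 2.7.9a, featureCounts, FastQC 0.11.9 and R 4.1.1, with the builds mm10 and hg38. No source used here gives the annotation, the strand setting of the counting or the handling of multi-mapped reads. Reads shared by paralogues or overlapping genes could therefore be split.

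Counts were fitted in R 4.3.3 with edgeR 4.0.16 (filterByExpr with a minimum count of 10 and a minimum total of 15, TMM, then glmQLFit and glmQLFTest on the group alone), and p was adjusted by Benjamini-Hochberg across the 12076 genes kept; fold changes are ETV4 KO over control, and the SE is the absolute log2 fold change over the square root of F. The fit was tested on simulated data. Positions and exon lengths came from GENCODE M21, with 1 position for 30416 of 31017 symbols. For the bin alternative, the median log2 fold change of the other genes of a 10 Mb bin with an edgeR log2 CPM above 3 (of the chromosome if fewer than 10) was an offset, taken as known. Alternatives were RLE and upper-quartile factors, library size only, DESeq2 1.42.0, limma-voom (limma 3.58.1), other count filters, a replicate block, other thresholds and each sample left out.

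The genes, lists, tests and alternatives were chosen with earlier results of these data known. Named were the 10 genes; per list up to 3 called genes in each direction with the largest change and a mean count of at least 100 in the higher group, of which the text gives most; the nearest tested neighbours of the coat genes; and the 3 profiles closest to the largest rise and fall. Some genes these rules take are not reported here. Pairs of libraries within a group had chi-square values of 2.12 to 5.16 per degree of freedom, so none appeared deposited more than once. The samples carry no batch label.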

Additional observations from a re-analysis of the deposited data

How the results depend on the processing

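The count of members called lower (5) was 3 with DESeq2, with no filter on low counts and at an adjusted p under 0.01, and 2 when the fold change was tested against 1.5; over the samples left out in turn it ran from 3 to 5, with 3 without control replicate 2 or 3 or ETV4 KO replicate 2 or 3. Cav2 was called in 7 and Ehd2 in 8 of 15 alternatives, and Ehd1 in 2. The count of members called higher (4) was 1 when tested against a fold change of 1.5, where the counts of pathway genes were 16 higher and 7 lower. The log2 fold change of Cav1 ran from -6.93 to -6.62 and that of Cavin2 from 5.58 to 5.97 over these 15 alternatives. Taking out the 10 Mb bin medians turned the sign of Ehd1 (-0.044), Rab5a (-0.0093) and Rab5c (0.14); the offset itself is what differs there. With a replicate block 5 members were called higher and 5 lower, and 70 and 44 pathway genes. The deviations of same-numbered samples correlated at 0.21, 0.22 and -0.0095. The first 2 of these were the highest among all pairs of a control and an ETV4 KO sample. The main fit used the group alone by plan, and these values do not settle whether the numbers mark pairs. ETV4 KO replicate 3 correlated best with control replicate 1 (0.11). Exon length by the longest transcript moved the share of Pacsin2 from 67.3% to 55.8% in controls and from 62.7% to 50.7% in ETV4 KO. Depth limits Cav1 in ETV4 KO and Cavin2 in controls, where few counts remain.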
